A study of Mus musculus with 16 samples.

Results

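The cholesterol and lipid synthesis genes and their regulators were described in CD8 T cells sorted from mouse mammary tumours. The module is a list of 34 gene symbols, of 24028 genes in the count table, and all 34 were found and passed the filter on low counts. By role, 7 members act in the mevalonate arm, 11 lead from squalene to cholesterol, 5 control SREBP (sterol regulatory element binding protein), 6 move sterols or belong to the LXR (liver X receptor) axis and 5 make fatty acids. BALB/c mice carried tumours of TS/A cells, a mammary adenocarcinoma line, in the mammary pad, and received either vehicle or entinostat (ENT), an inhibitor of class I histone deacetylases, at 20 mg/kg each day from day 7. Live CD45.2+ CD8+ CD4- cells were sorted at day 10 or day 17 after injection of the tumour cells, that is after 3 or 10 days of dosing. The 4 groups (vehicle day 10, entinostat day 10, vehicle day 17 and entinostat day 17) had 4 libraries each, 16 in all. Every animal carried a tumour, and the labels give neither age nor sex and do not say whether a library came from 1 animal or from a pool. P-values therefore measure only the spread between these libraries, which may be partly technical.

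Cells build cholesterol from acetyl-CoA through mevalonate and squalene, and the genes of that chain are classical targets of SREBP2, encoded by Srebf2. SREBPs are made as membrane precursors in the endoplasmic reticulum, where Scap escorts them to the Golgi for cleavage when sterols are low and the Insig proteins hold them back when sterols are high. Oxidised sterols activate the LXR receptors, which drive export of cholesterol through Abca1 and Abcg1 and limit the uptake of sterols through Mylip. Activated T cells are known to raise SREBP activity and lipid synthesis before they divide.

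Promoters of 27 of the 34 members were matched in the RefSeq table of build GRCm38.p6, and the 250 bases before each start were searched on both strands. The classical sterol regulatory element, spelled TCACNCCAC, was found at 331 of all 27025 genes in the table and at 1 of the 27 members, Hmgcs1. The NF-Y box CCAAT, a site often found beside it in sterol genes, was at 37.5% of all genes and at 20 of the 27 members. The GC box GGGCGG was at 35.4% of all genes and at 22 of the 27 members, and the E-box CACGTG at 6.86% and at 6. A match is a description of letters and not a measured binding site. The windows of Hmgcs1 and Mvd, mevalonate genes that fell with entinostat at day 17, and of Fasn, whose difference did not pass the test, are shown 5′ to 3′ on the gene's strand. Capitals mark the sterol regulatory element and the NF-Y boxes on either strand.
Hmgcs1, chr13:119690101-119690350, plus strand: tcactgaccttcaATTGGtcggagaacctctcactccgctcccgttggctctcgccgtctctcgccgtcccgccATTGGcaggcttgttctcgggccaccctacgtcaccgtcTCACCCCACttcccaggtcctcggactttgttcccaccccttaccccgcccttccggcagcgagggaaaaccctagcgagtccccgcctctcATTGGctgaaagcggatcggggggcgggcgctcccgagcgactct
Mvd, chr8:122443423-122443672, minus strand: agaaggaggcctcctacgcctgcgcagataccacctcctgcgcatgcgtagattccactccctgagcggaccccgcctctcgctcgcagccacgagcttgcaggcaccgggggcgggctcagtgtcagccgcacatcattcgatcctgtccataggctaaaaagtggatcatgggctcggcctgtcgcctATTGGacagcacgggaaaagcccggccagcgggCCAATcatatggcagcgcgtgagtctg
Fasn, chr11:120824548-120824797, minus strand: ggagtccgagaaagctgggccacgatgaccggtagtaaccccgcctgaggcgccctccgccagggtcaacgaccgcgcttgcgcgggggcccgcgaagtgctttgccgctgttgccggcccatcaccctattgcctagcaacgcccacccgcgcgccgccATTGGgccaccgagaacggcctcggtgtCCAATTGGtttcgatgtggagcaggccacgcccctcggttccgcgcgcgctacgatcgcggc
In Hmgcs1 the element TCACCCCAC began 137 bases before the start and overlapped no other motif searched, and the window held 3 NF-Y boxes. Mvd held 2 NF-Y boxes and Fasn 3, of which a pair overlapped, and neither held a match to TCACNCCAC in this window.

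The vehicle libraries held 3640768 to 4227704 counts at day 10 and 2842099 to 6975904 at day 17, and the entinostat libraries 2639019 to 5709243 and 554593 to 3530961, the shallowest being entinostat day 17 replicate 3. Levels are given as CPM, counts scaled to a common total, after TMM scaling, changes as log2 fold changes with their standard error (SE), and errors of means as standard deviations (SD, n = 4). A gene was called where edgeR's quasi-likelihood test gave an adjusted p (Benjamini-Hochberg over 17414 genes) under 0.05. Genes of the olfactory and vomeronasal receptors, which are not used by T cells, took 582 to 1863 CPM with vehicle and 586 to 5722 CPM with entinostat at day 10, and 636 to 5290 and 3628 to 6901 CPM at day 17. Of the 34 members 33 lay above 12.7 CPM on average, the 99th percentile of these receptor genes, and Tm7sf2 lay under it. Over the 10397 genes above that level the median log2 fold change was −0.16 for entinostat at day 10 and −0.21 at day 17, so member changes are read against these shifts. Scaling by library size alone moved the medians to 0.00 and −0.05. The share of lower genes among all called genes then went from 47.6% to 24.0% at day 10 and from 71.1% to 51.8% at day 17. CD8 T cell markers were high in all groups, with Cd8a at 419 ± 14.6 CPM (vehicle) and 331 ± 22.3 CPM (entinostat) at day 10, and 369.6 ± 30.8 and 442 ± 109.8 CPM at day 17. Of 9 such markers tested none was called by edgeR for entinostat at either day. At an unadjusted p under 0.05 were 1 of 9 at day 10 (33.5% of all genes) and 6 of 9 at day 17 (33.2% of all genes). Their means with entinostat were lower in 8 of 9 at day 10 (median −0.17 log2) and higher in all 9 at day 17 (median 0.29 log2).

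The members lie on many chromosomes of build GRCm38 (GENCODE M21 annotation), among them Hmgcs1 at chr13:119690379-119708260, Sqle at chr15:59315077-59331192, Srebf2 at chr15:82147181-82205379, Scap at chr9:110333288-110384950, Insig1 at chr5:28071363-28078662, Abca1 at chr4:53030787-53159895 and Acaca at chr11:84129672-84401651. Per kilobase of exon, with the exons of all annotated transcripts of a gene joined, the level differed widely among the members. Acly, which makes cytosolic acetyl-CoA from citrate, was highest at 71.9 CPM per kb over all 16 libraries, followed by Nr1h2, which encodes LXR beta, at 44.9 and Srebf2 at 41.8 CPM per kb. Lowest were Tm7sf2, a sterol reductase, at 2.59, the cholesterol exporter Abca1 at 3.48 and Lss, the enzyme that closes the sterol rings, at 5.19 CPM per kb. These ranks depend on the exon length used. Lss, with 10787 bases, and Fdft1, with 4227 bases, had 56.0 and 55.6 CPM over all libraries. Among SREBP genes the mean level per kb was higher for Srebf2 than for Srebf1, which stood at 29.7 CPM per kb. Fasn, the fatty acid synthase, stood at 31.5 and Hmgcs1, which makes HMG-CoA, at 28.9 CPM per kb.

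**Figure D1:**
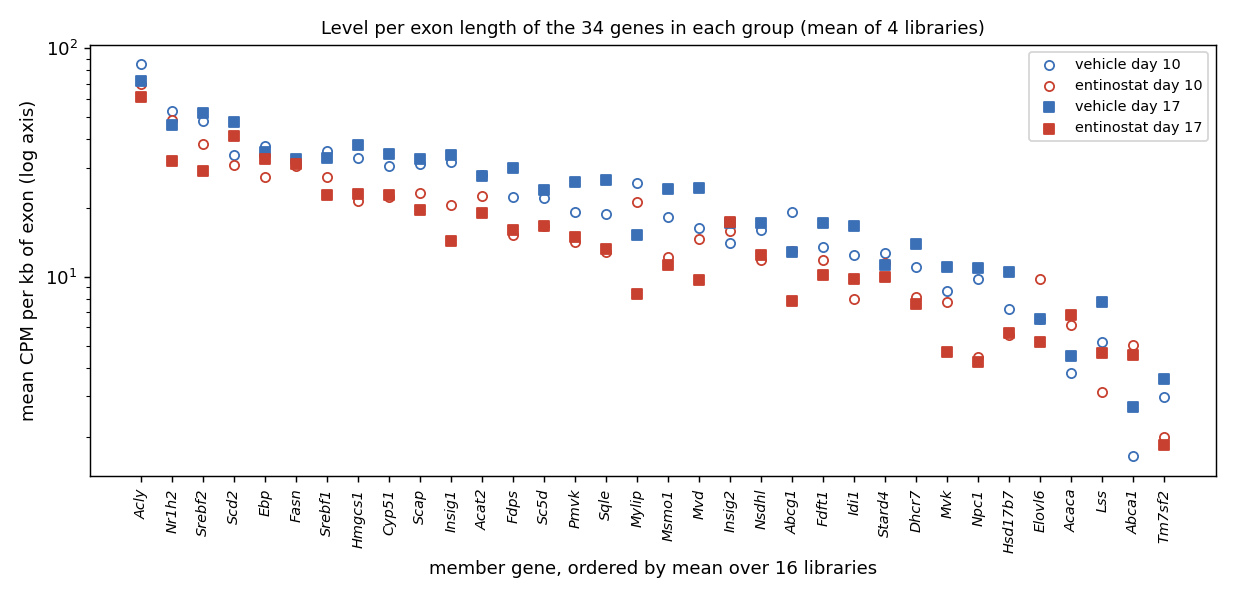
Mean CPM per kilobase of exon (log axis) of the 34 members, ordered by the mean over 16 libraries, where circles (open) are day 10, squares (filled) are day 17 and vehicle is blue against red entinostat. Acly leads at 71.9 and Tm7sf2 closes at 2.59 CPM per kb over all libraries, and for all 18 synthesis enzymes the red square lies below the blue one.

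After 10 days of entinostat, 12 of 18 cholesterol synthesis enzymes and 4 of 5 genes of SREBP control fell in the sorted cells, while the isomerase Ebp (−0.08 log2) and Insig2 (0.02 log2) were close to 0. In the same comparison 11 of 12 plasmacytoid dendritic cell markers fell too. At day 17, 20 of the 34 members fell and 1, Acaca, rose, where 13.0% of all genes tested were called lower and 5.29% higher. The median log2 fold change of the 34 was −0.72, against −0.01 over all genes tested and −0.21 over genes above the receptor level, and 31 of 34 had a lower mean. Among the genes above the receptor level 20.8% were called lower in the same fit. In 18 of the 34 members every entinostat library lay below every vehicle library (13.6% of all genes) and in 2 every one lay above (10.8%). After 3 days of entinostat 4 members fell (Npc1, Hmgcs1, Scap and Srebf1) and 2 rose (Abca1 and Acaca), beside 6.93% of all genes called lower and 7.63% higher. Among the genes above the receptor level 11.3% were called lower at day 10, so the 4 of 34 (11.8%) are near that background. The members' median was −0.39, against 0.06 over all genes and −0.16 over genes above the receptor level, and 30 of 34 had a lower mean. The groups did not overlap in 6 members that were lower (12.4% of all genes) and 1 that was higher (7.81%). Since these are bulk samples, fewer cells of a type and less RNA per cell cannot be told apart.

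With library size alone 24 of 34 members had a lower mean at day 10 and 29 at day 17, and the members' median was −0.23 and −0.57. Of the day 17 calls, 12 of 21 held in all 27 alternative fits, namely Npc1, Srebf2, Scap, Mvd, Insig1, Mylip, Fdps, Msmo1, Srebf1, Dhcr7, Mvk and Acaca. Of the 6 day 10 calls Npc1, Abca1 and Acaca held in all 27. The number of members called at day 10 was 15 without entinostat day 10 replicate 4, and 3 when vehicle day 10 replicate 3 or 4 or entinostat day 10 replicate 1 was left out. At day 17 it was 14 to 23 over the libraries left out in turn. Libraries of equal number deviated together at day 10, and with the number as a block within each day Scap was no longer called there (adjusted p = 0.0795), while Fdps (adjusted p = 0.0364) and Msmo1 (adjusted p = 0.0484) were, by edgeR in each case.

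**Figure D2:**
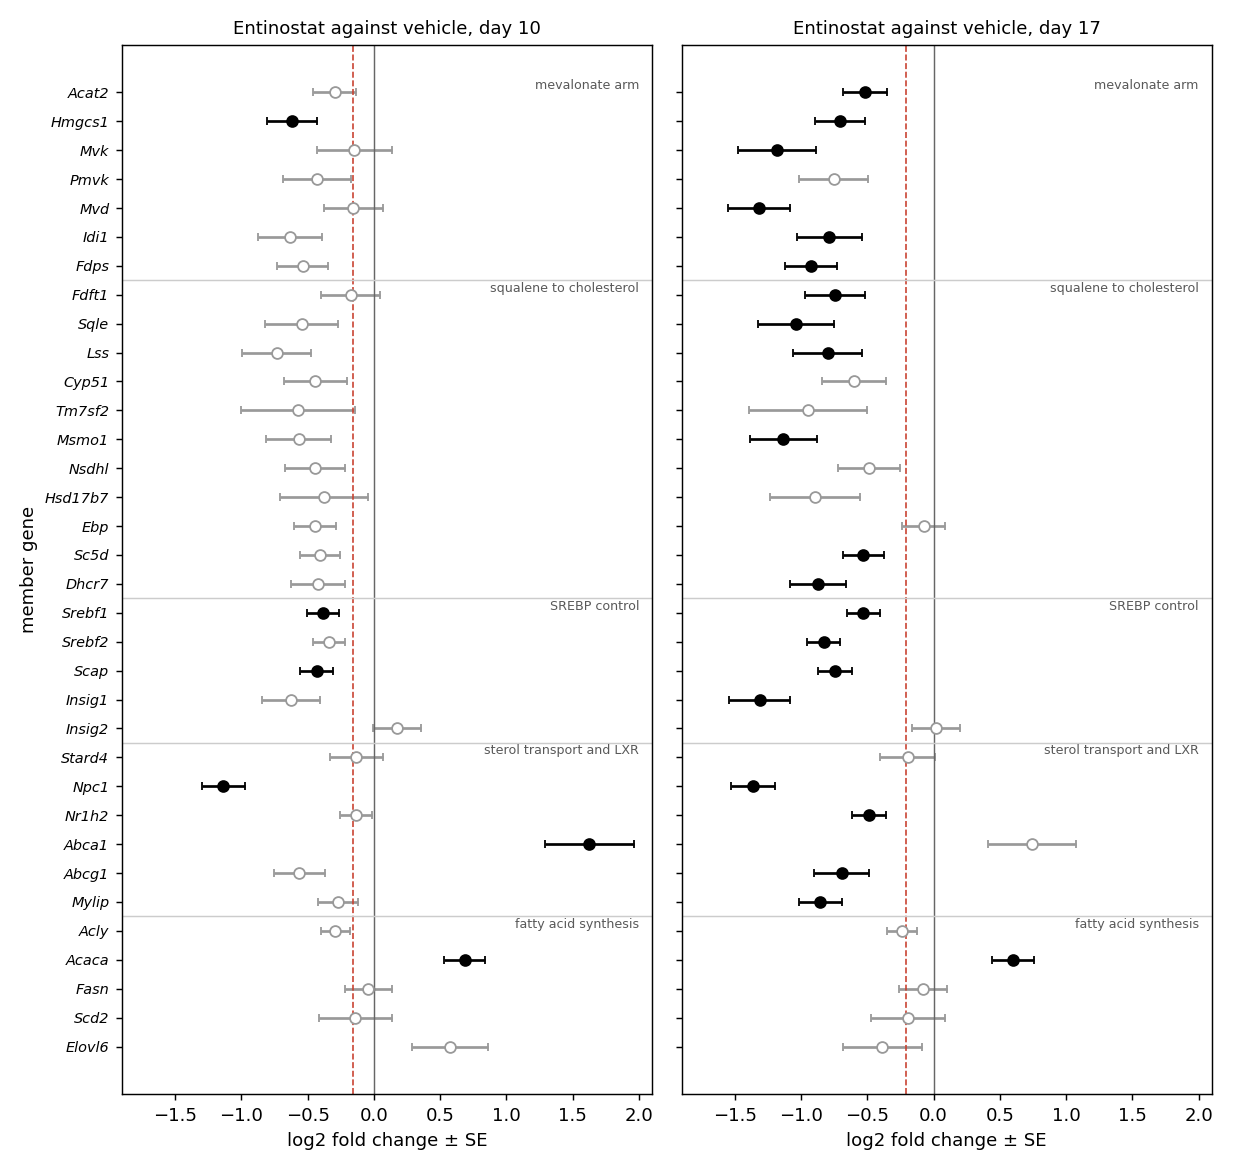
Log2 fold change ± SE of entinostat against vehicle at day 10 (left) and day 17 (right) for each of the 34 members, grouped by role. Filled black points passed the test at an adjusted p under 0.05, open grey points did not; the red dashed line is the median of genes above the receptor level, −0.16 at day 10 and −0.21 at day 17, when 20 filled points lie left of 0 and 1, Acaca, right of it.

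Transcripts of dendritic cells also differed between entinostat and vehicle. Of 12 plasmacytoid dendritic cell markers (Siglech, Bst2, Ccr9, Tcf4, Ly6d, Irf8, Cox6a2, Klk1, Runx2, Pld4, Rnase6 and Smim5), 11 fell at day 10 and 11 at day 17, all but Ly6d, with medians of −1.88 and −2.59 log2. Ly6d was higher by 1.98 log2 at day 10 (unadjusted p under 0.05 by edgeR, not called) and had a lower mean at day 17. Of all genes 6.93% were called lower and 7.63% higher at day 10, and 13.0% and 5.29% at day 17. T cells are also known to use Bst2, Ccr9, Irf8 and Runx2. The summed level of all 12 markers was 1643 to 3092 CPM with vehicle and 737 to 1252 CPM with entinostat at day 10, and 2690 to 3324 and 753 to 972 CPM at day 17. Siglech, which defines these cells, was at 220.1 to 459 CPM with vehicle and 34.5 to 103 CPM with entinostat at day 10, and at 371 to 501 and 28.2 to 72.6 CPM at day 17. Ly6d and Cox6a2 were at 0 in 1 or more entinostat libraries of day 17. Of 10 conventional dendritic cell markers 4 fell at day 10 and 5 at day 17, with summed levels of 491 to 1218 and 397 to 622 CPM at day 10, and 1193 to 1735 and 436 to 485 CPM at day 17. The macrophage genes C1qa, C1qb, C1qc and Fcgr1 reached at most 3.50 CPM in any library, and the epithelial genes Krt8, Cldn4 and Cldn7 at most 4.07 CPM. Other genes of these lists were higher. Cd68, a lysosomal protein of macrophages that dendritic cells also hold, was at 55.7 to 115 and 23.9 to 38.6 CPM at day 10, and 109 to 127 and 8.29 to 23.8 CPM at day 17, with vehicle and entinostat. Cdh1, encoding E-cadherin, was at 153 to 249 and 96.8 to 115 CPM at day 10, and 155 to 274 and 68.2 to 101.8 CPM at day 17. Lyz2 and Krt18 reached 63.8 and 71.2 CPM in single libraries. The summed level of the macrophage and monocyte list was 668 to 966 CPM with vehicle and 607 to 722 CPM with entinostat at day 10, and 616 to 787 and 571 to 1014 CPM at day 17, and that of the epithelial list 156 to 261 and 116 to 158 CPM, and 173 to 334 and 86.7 to 191 CPM. Of 8 macrophage and monocyte markers tested 1 fell and 1 rose at day 10, and 2 fell and 1 rose at day 17. Of 6 B cell markers 1 fell and 1 rose at each day, and of 4 epithelial markers 1 fell at each day. Of 7 fibroblast and endothelial markers 1 fell and 1 rose at day 10, and 3 fell at day 17.

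The summed level of the 18 synthesis enzymes was 1032 to 1486 CPM with vehicle and 771 to 1194 CPM with entinostat at day 10, and 1212 to 2003 and 830 to 980 CPM at day 17. Vehicle day 10 replicate 2 had the lowest sum of its group both for the plasmacytoid markers (1643 CPM) and for the synthesis enzymes (1032 CPM). Entinostat day 10 replicate 4 had the highest of its group for both, at 1252 and 1194 CPM. In each day 10 group both sums rose in the same order, from replicate 2 through 1 and 3 to 4. At day 17 the orders of the sums differed. Vehicle replicate 4 had the second highest marker sum of its group (3268 CPM) with the lowest enzyme sum (1212 CPM), and replicate 1 the lowest marker sum (2690 CPM) with 1556 CPM of enzymes. Vehicle replicate 3 was highest for both, at 3324 and 2003 CPM. With entinostat, replicate 3 had the lowest marker sum (753 CPM) with 939 CPM of enzymes, and replicate 2 the lowest enzyme sum (830 CPM). The part of dendritic cell transcripts in the lower synthesis transcripts was not tested.

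**Figure D3:**
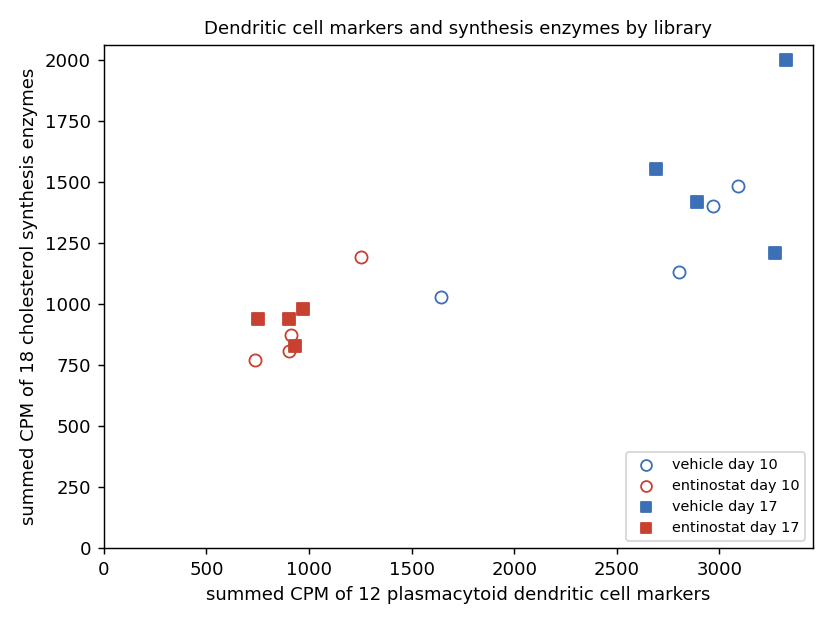
Summed CPM of 12 plasmacytoid dendritic cell markers (horizontal) against summed CPM of the 18 synthesis enzymes (vertical), 1 point per library, vehicle blue and entinostat red, the day 10 libraries as open circles and those of day 17 as filled squares. The vehicle libraries lie at 1643 CPM of markers or more and the entinostat libraries at 1252 CPM or less.

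In the mevalonate arm, which runs from acetyl-CoA to farnesyl diphosphate, 6 of 7 members fell at day 17, all but Pmvk, and 1 of 7, Hmgcs1, fell at day 10. Of all genes 13.0% were called lower at day 17 and 6.93% at day 10, and of genes above the receptor level 20.8% and 11.3%. The 1 of 7 (14.3%) at day 10 is near that last share. Median log2 fold changes of the 7 were −0.78 at day 17 and −0.43 at day 10. In all 7 every entinostat library of day 17 lay below every vehicle library (13.6% of all genes).

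Mvd, which decarboxylates mevalonate diphosphate, showed the largest fall of the arm at day 17. Its level was 45.7, 37.3, 60.5 and 38.1 CPM in the 4 vehicle libraries and 20.6, 17.2, 14.9 and 19.0 CPM in the 4 entinostat libraries. Every entinostat library lay under every vehicle library, and the log2 fold change was −1.32 ± 0.23 (SE), or 2.49-fold lower (edgeR adjusted p = 0.000732). At day 10 Mvd stood at 33.0, 21.3, 33.1 and 33.7 CPM with vehicle and 22.7, 26.8, 26.2 and 32.7 CPM with entinostat, and the groups overlapped. That difference was −0.16 ± 0.22 on the log2 scale (edgeR adjusted p = 0.637), and its sign turned with library size alone, at 0.01. Vehicle day 10 replicate 2 was the lowest of its group by far, at 21.3 CPM.

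Hmgcs1, which condenses acetyl-CoA units into HMG-CoA, was at 145, 126, 170.0 and 168 CPM with vehicle and 98.9, 75.9, 95.0 and 126 CPM with entinostat at day 10. The groups touched, as the highest entinostat library reached the level of the lowest vehicle library. Hmgcs1 fell by 0.62 ± 0.19 log2 at day 10 (edgeR adjusted p = 0.0368), a call lost when any of 11 of the 16 libraries was left out, with adjusted p from 0.0114 to 0.116. This call was also lost in 4 of the 11 other alternative fits. At day 17 the vehicle libraries had 162, 164, 252 and 117 CPM and the entinostat libraries 104, 108, 96.2 and 115 CPM. Here the groups were separate, with vehicle replicate 3 well above the other vehicle libraries. The fall at day 17 was 0.70 ± 0.19 log2 (edgeR adjusted p = 0.0161). It was not called without vehicle day 17 replicate 3 (adjusted p = 0.0853) or with only genes above the receptor level. In the annotation the exons of Hmgcs1 share 12.1% of their length with the gene model Gm48342, so its level is uncertain.

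Fdps, the farnesyl diphosphate synthase, fell at day 17 from 124, 122, 154 and 104 CPM to 76.8, 51.7, 78.0 and 63.4 CPM. No entinostat library reached the lowest vehicle library, and the change was −0.93 ± 0.20 log2 (edgeR adjusted p = 0.00328). At day 10 its entinostat libraries had 53.5, 56.1, 54.6 and 91.9 CPM against 80.7, 76.2, 103 and 115 CPM with vehicle. Replicate 4 of that entinostat group stood far above the other 3, and the change of −0.54 ± 0.19 log2 did not pass the test (edgeR adjusted p = 0.0642). Fdps shares 26.7% of its exon length with the same-strand gene model Gm43738, so its level is uncertain.

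Mvk, mevalonate kinase, was at 31.7, 29.9, 35.0 and 21.9 CPM with vehicle and 14.5, 11.3, 6.64 and 17.6 CPM with entinostat at day 17. The ranges did not meet, and Mvk fell by 1.18 ± 0.29 log2 (edgeR adjusted p = 0.00955). At day 10 it was at 16.8 to 25.4 CPM with vehicle and 16.7 to 27.9 CPM with entinostat, a difference of −0.15 log2 that was not called and was 0.01 with library size alone. Idi1, the isomerase of isopentenyl diphosphate, was at 52.2, 50.029, 89.6 and 41.8 CPM with vehicle and 32.5, 28.3, 36.5 and 39.3 CPM with entinostat at day 17. Acat2, a cytosolic acetoacetyl-CoA thiolase at the head of the arm, was at 75.2, 64.9, 84.4 and 55.9 CPM with vehicle and 49.8, 51.2, 41.5 and 51.2 CPM with entinostat. Both had separate ranges and fell, by 0.78 and 0.52 log2 (edgeR adjusted p = 0.0333 and 0.0381). Leaving out single libraries ended the call of Idi1 in 6 of 16 cases and that of Acat2 in 11, with adjusted p up to 0.178 and 0.147. In the 11 other alternative fits Idi1 was lost in 6 and Acat2 in 9. Acat2 has a near-identical neighbour, Acat3, and its reads may be split between them. Idi1 shares 9.22% of its exon length with the gene model Gm48574. Pmvk, the phosphomevalonate kinase, was 37.1 to 53.0 CPM with vehicle and 14.9 to 29.9 CPM with entinostat at day 17, a difference of −0.75 log2 that missed the threshold (edgeR adjusted p = 0.0528).

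From squalene to cholesterol, 6 of 11 members fell at day 17 (Fdft1, Sqle, Lss, Msmo1, Sc5d and Dhcr7). Of all genes 13.0% were called lower there, and 20.8% of genes above the receptor level. None of the 11 was called at day 10 by edgeR. There 4 of 11 (36.4%) had an unadjusted p under 0.05, near the 33.5% of all genes. By limma-voom, which called 38.7% of all genes at day 10, 7 were called. All 11 had lower means at both days, with medians of −0.44 at day 10 and −0.80 at day 17. Over the 18 enzymes of both arms together, 12 fell at day 17 and 1 at day 10, with medians of −0.79 and −0.44. The 1 of 18 (5.56%) at day 10 is not above the 6.93% of all genes called lower there.

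Msmo1, a sterol demethylase that removes methyl groups at carbon 4, gave the smallest p of the 11. It was at 125, 136, 195 and 138 CPM with vehicle and 82.6, 46.0, 84.6 and 64.8 CPM with entinostat at day 17. Each entinostat library was lower than each vehicle library, and the change was −1.13 ± 0.25 log2, or 2.19-fold lower (edgeR adjusted p = 0.00497). At day 10 the libraries had 72.7, 87.9, 141 and 145 CPM with vehicle and 57.3, 61.0, 73.1 and 108 CPM with entinostat, overlapping groups with a difference of −0.57 ± 0.24 log2 (edgeR adjusted p = 0.115).

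Sqle, squalene monooxygenase, carries out an oxygen-dependent and rate-limiting step of the chain. At day 17 it was 143, 151, 195 and 97.4 CPM with vehicle and 80.1, 50.6, 91.2 and 71.2 CPM with entinostat. The groups did not overlap, though the lowest vehicle and highest entinostat libraries were close. Sqle fell by 1.04 ± 0.29 log2 (edgeR adjusted p = 0.0178). Leaving out vehicle replicate 3 or entinostat replicate 2 or 4 of day 17 ended that call, with adjusted p up to 0.0747. At day 10 Sqle was spread widely, at 96.2, 74.9, 123 and 124 CPM with vehicle and 55.0, 36.3, 82.3 and 111 CPM with entinostat. That difference of −0.54 ± 0.28 log2 did not pass the test (edgeR adjusted p = 0.175).

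Dhcr7, which reduces 7-dehydrocholesterol to cholesterol, was at 95.7, 72.8, 92.6 and 61.0 CPM with vehicle and 47.9, 36.9, 46.4 and 46.1 CPM with entinostat at day 17. The ranges were separate, and Dhcr7 fell by 0.87 ± 0.21 log2 (edgeR adjusted p = 0.00756). Sc5d, the desaturase just before it, went from 111, 102, 153 and 99.1 CPM to 77.2, 66.0, 87.9 and 95.0 CPM and fell by 0.53 log2 (edgeR adjusted p = 0.023). Fdft1, squalene synthase, was at 70.0, 64.9, 95.0 and 60.4 CPM with vehicle and 43.7, 46.0, 38.2 and 43.4 CPM with entinostat and fell by 0.74 log2 (edgeR adjusted p = 0.0304). Neither Sc5d nor Fdft1 had any overlap between the groups. Lss, lanosterol synthase, was at 87.4, 61.9, 102 and 84.4 CPM with vehicle and 49.2, 44.7, 68.0 and 37.7 CPM with entinostat and fell by 0.80 log2 (edgeR adjusted p = 0.0413), with entinostat replicate 3 inside the vehicle range. Of these 4, only the call of Dhcr7 outlasted the removal of each library in turn, as those of Sc5d, Fdft1 and Lss were lost in 3, 6 and 8 of 16 cases, with adjusted p up to 0.109, 0.125 and 0.152. In the 11 other alternative fits Sc5d was lost in 6, Fdft1 in 5 and Lss in 6. Fdft1 shares 18.3% of its exon length with the opposite-strand gene Ctsb, whose reads cannot be told apart without strand.

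The other 5 of the 11 were not called by edgeR at day 17. Limma-voom, which called 28.1% of all genes there, also called Cyp51, Tm7sf2, Nsdhl and Hsd17b7 lower. By edgeR Tm7sf2 was called without entinostat day 17 replicate 2, and Hsd17b7 without vehicle day 17 replicate 4. Cyp51, lanosterol demethylase, was at 105 to 216 CPM with vehicle and 80.5 to 116 CPM with entinostat, a difference of −0.60 ± 0.24 log2. Nsdhl, a sterol dehydrogenase, was at 30.5 to 61.3 and 29.9 to 41.2 CPM, a difference of −0.49 ± 0.23 log2. Hsd17b7, a sterol ketone reductase, was at 32.2 to 71.3 and 13.7 to 39.7 CPM, a difference of −0.89 ± 0.34 log2. In each of these the ranges overlapped. Tm7sf2, the lowest member, was at 11.7 to 18.8 and 3.54 to 14.8 CPM, a difference of −0.95 ± 0.44 log2, and it shares 12.1% of its exon length with Vps51. The day 10 differences of these 4 ran from −0.38 to −0.57 log2, none called by edgeR. Ebp, a sterol isomerase, stood at 67.6 to 94.6 CPM with vehicle and 56.4 to 92.1 CPM with entinostat at day 17, with a difference of −0.08 ± 0.16 log2 whose sign turned with library size alone (0.08). At day 10 every entinostat library of Ebp lay below every vehicle library, at 64.7, 55.3, 54.9 and 77.9 CPM against 87.4, 87.1, 84.1 and 85.8 CPM. That difference of −0.44 ± 0.16 log2 was not called (edgeR adjusted p = 0.0646).

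**Figure D4:**
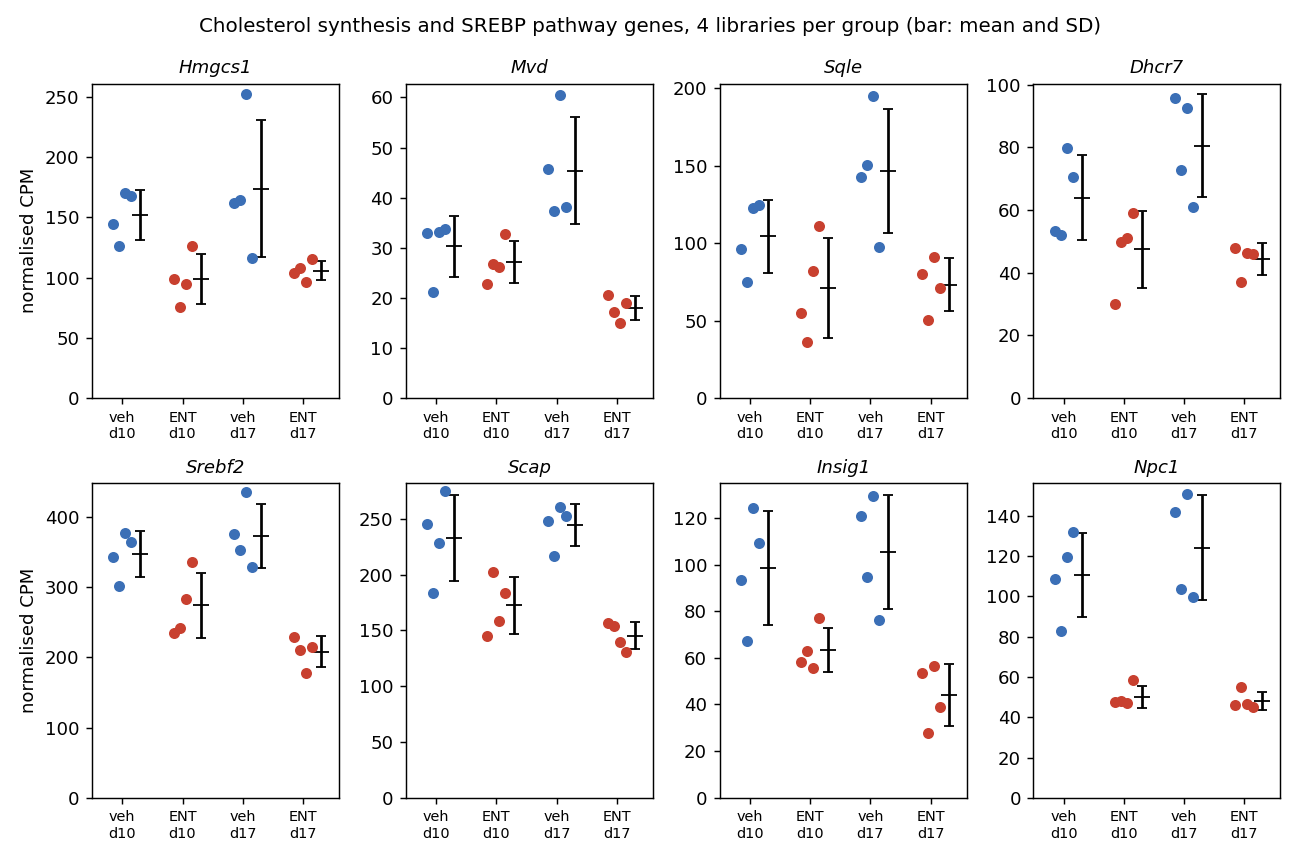
CPM in each library for 8 members of the synthesis and SREBP pathway, with vehicle in blue, entinostat in red, day 10 (d10) left and day 17 (d17) right in each panel, and the mean and SD as a black bar. At day 17 the 4 entinostat libraries of each of these 8 genes lie below the 4 vehicle libraries, and at day 10 only Npc1 of the 8 has separate groups.

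Among the SREBP control genes, Srebf1, Srebf2, Scap and Insig1 fell at day 17 and Insig2 did not pass, 4 of 5, and 2 of 5 (Srebf1 and Scap) fell at day 10. Of all genes 13.0% were called lower at day 17 and 6.93% at day 10, and of genes above the receptor level 20.8% and 11.3%. Srebf2, the transcription factor of the cholesterol genes, was at 376, 353, 435 and 328 CPM with vehicle and 229, 211, 178 and 215 CPM with entinostat at day 17. The groups were well apart, and Srebf2 fell by 0.83 ± 0.12 log2, or 1.78-fold (edgeR adjusted p = 0.000181). At day 10 it was at 343, 302, 376 and 364 CPM with vehicle and 235, 241, 283 and 336 CPM with entinostat. Entinostat replicate 4 lay among the vehicle libraries, and the difference of −0.34 ± 0.12 log2 was not called (edgeR adjusted p = 0.0683). Without that library it was (adjusted p = 0.0155).

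Scap, the sterol sensor that carries SREBP precursors to the Golgi, fell at day 17 from 248, 217, 261 and 252 CPM to 157, 154, 139 and 131 CPM. These 8 values formed separate ranges, and the fall was 0.75 ± 0.13 log2 (edgeR adjusted p = 0.000574). At day 10 the vehicle libraries had 245, 183, 228 and 275 CPM and the entinostat libraries 145, 202, 158 and 184 CPM, which overlapped through vehicle replicate 2. The day 10 fall of 0.43 ± 0.12 log2 (edgeR adjusted p = 0.0309) was lost in 5 of 16 cases when a library was left out, with adjusted p up to 0.0985. This call was also lost in 7 of the 11 other alternative fits. Scap shares 13.2% of its exon length with the gene 5830462I19Rik.

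Srebf1, which encodes the SREBP1 forms active on fatty acid genes, was at 199, 213, 198 and 194 CPM with vehicle and 145, 158, 145 and 168 CPM with entinostat at day 10. The vehicle libraries lay close together and above all entinostat libraries. Srebf1 fell by 0.38 ± 0.12 log2 (edgeR adjusted p = 0.0426), a call lost in 13 of 16 cases when a library was left out (adjusted p 0.0339 to 0.149). This call was also lost in 6 of the 11 other alternative fits. At day 17 it was 226, 167, 206 and 149 CPM with vehicle and 152, 130.3, 114 and 117 CPM with entinostat, with vehicle replicate 4 just below the highest entinostat library. The fall there was 0.53 ± 0.12 log2 (edgeR adjusted p = 0.00638).

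Insig1, an SREBP retention protein that is itself an SREBP target, had 121, 94.8, 129 and 76.1 CPM with vehicle and 53.4, 27.7, 56.4 and 39.0 CPM with entinostat at day 17. All entinostat libraries were lower, and Insig1 fell by 1.31 ± 0.23 log2, or 2.48-fold (edgeR adjusted p = 0.000734). At day 10 the values were 93.2, 67.1, 124 and 109 CPM with vehicle and 58.4, 62.8, 55.8 and 77.0 CPM with entinostat. Only vehicle replicate 2 fell into the entinostat range, and the difference was −0.63 ± 0.22 log2 (edgeR adjusted p = 0.0596). It was called without that library (adjusted p = 0.0481) and without entinostat day 10 replicate 4 (adjusted p = 0.0337). Its relative Insig2, the other retention protein, averaged 59.5 ± 11.9 CPM in the vehicle group of day 17 and 60.1 ± 7.58 CPM in the entinostat group. The Insig2 difference was 0.02 ± 0.18 log2 at day 17 and 0.18 ± 0.18 log2 at day 10, and the difference between Insig1 and Insig2 was not tested.

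In the group of sterol transport and LXR genes, 4 of 6 fell at day 17 (Npc1, Nr1h2, Abcg1 and Mylip) and 1 of 6 (Npc1) fell at day 10, when Abca1 rose. Of all genes 13.0% were called lower at day 17, and 6.93% lower and 7.63% higher at day 10. Among genes above the receptor level 20.8% and 11.3% were called lower at day 17 and day 10, and the 1 of 6 (16.7%) at day 10 is near that last share. Npc1, the lysosomal protein that releases cholesterol taken up with lipoproteins, had the smallest p of the module at both days. At day 10 it was at 108, 82.7, 119.6 and 132 CPM with vehicle and 47.6, 47.9, 46.9 and 58.4 CPM with entinostat, and at day 17 at 142, 104, 151 and 99.8 CPM with vehicle and 46.0, 54.9, 46.4 and 45.1 CPM with entinostat. The entinostat libraries lay close together and well below the vehicle libraries at both days. Npc1 fell by 1.14 ± 0.16 log2 at day 10, 2.20-fold (edgeR adjusted p = 0.00054), and by 1.36 ± 0.17 log2 at day 17, 2.57-fold (edgeR adjusted p = 2.58e-05). Both calls held in all 27 alternative fits.

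Stard4, which carries cholesterol between membranes inside the cell and is an SREBP2 target, was called at neither day. Its libraries were at 70.3, 65.6, 79.7 and 67.5 CPM with vehicle and 51.7, 53.8, 61.7 and 89.7 CPM with entinostat at day 10, and at 82.1, 53.5, 75.4 and 40.5 CPM and 51.4, 54.4, 59.7 and 57.0 CPM at day 17. The ranges overlapped at both days. The differences were −0.13 ± 0.20 and −0.19 ± 0.21 log2 (edgeR adjusted p = 0.654 and 0.537), and with library size alone the first was 0.03.

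Abca1, the transporter that exports cholesterol to apolipoproteins and a main LXR target, rose at day 10. It was at 23.5, 15.6, 11.7 and 16.996 CPM with vehicle and 47.2, 83.7, 56.4 and 22.2 CPM with entinostat. Entinostat replicate 4 was within the vehicle range, and the other 3 were above it. Abca1 rose by 1.62 ± 0.33 log2, 3.08-fold (edgeR adjusted p = 0.00637). At day 17 its libraries were at 17.8, 33.1, 24.7 and 35.7 CPM with vehicle and 46.6, 42.0, 59.7 and 40.0 CPM with entinostat, separate ranges with all entinostat libraries higher. That difference of 0.74 ± 0.33 log2 did not pass the test (edgeR adjusted p = 0.125), and did so only when entinostat day 10 replicate 4 was left out (adjusted p = 0.0446).

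Mylip and Abcg1, which LXR also drives, fell at day 17. Mylip, a ubiquitin ligase that limits the uptake of sterols, was at 59.0, 45.3, 51.0 and 41.8 CPM with vehicle and 32.8, 22.6, 26.5 and 27.1 CPM with entinostat at day 17. No values overlapped, and Mylip fell by 0.85 ± 0.16 log2 (edgeR adjusted p = 0.00151). Abcg1, another cholesterol exporter, was at 124, 89.5, 88.0 and 73.0 CPM with vehicle and 54.0, 82.7, 51.4 and 41.0 CPM with entinostat, and only entinostat replicate 2 exceeded a vehicle library. Abcg1 fell by 0.69 ± 0.21 log2 (edgeR adjusted p = 0.026), and the call was lost in 4 of 16 cases (adjusted p up to 0.133). It was also lost in 3 of the 11 other alternative fits. Nr1h2, the receptor LXR beta, was at 176, 144, 148 and 147 CPM with vehicle and 119, 136, 81.3 and 94.6 CPM with entinostat. Its ranges were separate, with vehicle replicate 1 standing above the rest of its group. Nr1h2 fell by 0.49 ± 0.13 log2 (edgeR adjusted p = 0.013), a call lost without vehicle day 17 replicate 1 or entinostat day 17 replicate 4 (adjusted p up to 0.0815). The call was also lost with library size alone and with only the groups compared. At day 10 Abcg1 was at 126, 178, 135 and 122 CPM with vehicle and 79.9, 105, 83.9 and 110.1 CPM with entinostat, separate ranges. At that day Mylip, Abcg1 and Nr1h2 differed by −0.27, −0.56 and −0.13 log2 and were not called, and the sign for Nr1h2 turned with library size alone (0.03).

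Of the 5 fatty acid synthesis genes 1 rose (Acaca) and none fell by edgeR at either day. Of all genes 7.63% were called higher at day 10 and 5.29% at day 17. At each day 2 of 5 (40%) had an unadjusted p under 0.05, near the 33.5% and 33.2% of all genes. By limma-voom, which called 28.1% of all genes at day 17, Acly was also called lower at both days. Acaca, acetyl-CoA carboxylase 1, makes the malonyl-CoA used to lengthen fatty acids. At day 10 it was at 70.3, 51.1, 59.2 and 79.5 CPM with vehicle and 100.4, 110.4, 112 and 95.1 CPM with entinostat, and at day 17 at 55.7, 80.7, 92.1 and 79.9 CPM with vehicle and 117, 105, 108 and 135 CPM with entinostat. All entinostat libraries lay above all vehicle libraries at both days. Acaca rose by 0.68 ± 0.16 log2 at day 10 (edgeR adjusted p = 0.0108) and by 0.60 ± 0.16 log2 at day 17 (edgeR adjusted p = 0.0131), calls that held in all 27 alternative fits.

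Fasn, which builds palmitate from malonyl-CoA, was at 389, 293, 294 and 403 CPM with vehicle and 292, 324, 369 and 354 CPM with entinostat at day 10, and at 337, 363, 501 and 236 CPM with vehicle and 351, 285, 312 and 409 CPM with entinostat at day 17. The groups overlapped at both days. The differences of −0.04 ± 0.18 and −0.08 ± 0.18 log2 did not pass (edgeR adjusted p = 0.882 and 0.789), and with library size alone they were 0.12 and 0.09. Acly, the member with the highest level per kb, was at 426, 414, 511 and 445 CPM with vehicle and 379, 355, 353 and 382 CPM with entinostat at day 10. The ranges were separate, yet the difference of −0.29 ± 0.11 log2 was not called (edgeR adjusted p = 0.0786), and at day 17 it was −0.24 ± 0.11 log2 with overlapping ranges. Scd2, a stearoyl-CoA desaturase, was at 147 to 224 CPM with vehicle and 119.6 to 276 CPM with entinostat at day 10, and at 124 to 354 and 178 to 281 CPM at day 17. Its differences were −0.14 ± 0.28 and −0.19 ± 0.28 log2. Elovl6, an elongase of palmitate, was at 30.2 to 55.5 CPM with vehicle and 36.8 to 82.4 CPM with entinostat at day 10, and at 26.7 to 59.2 and 21.0 to 43.1 CPM at day 17. Its mean was higher by 0.58 ± 0.29 log2 at day 10 and lower by 0.39 ± 0.30 log2 at day 17, neither called.

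**Figure D5:**
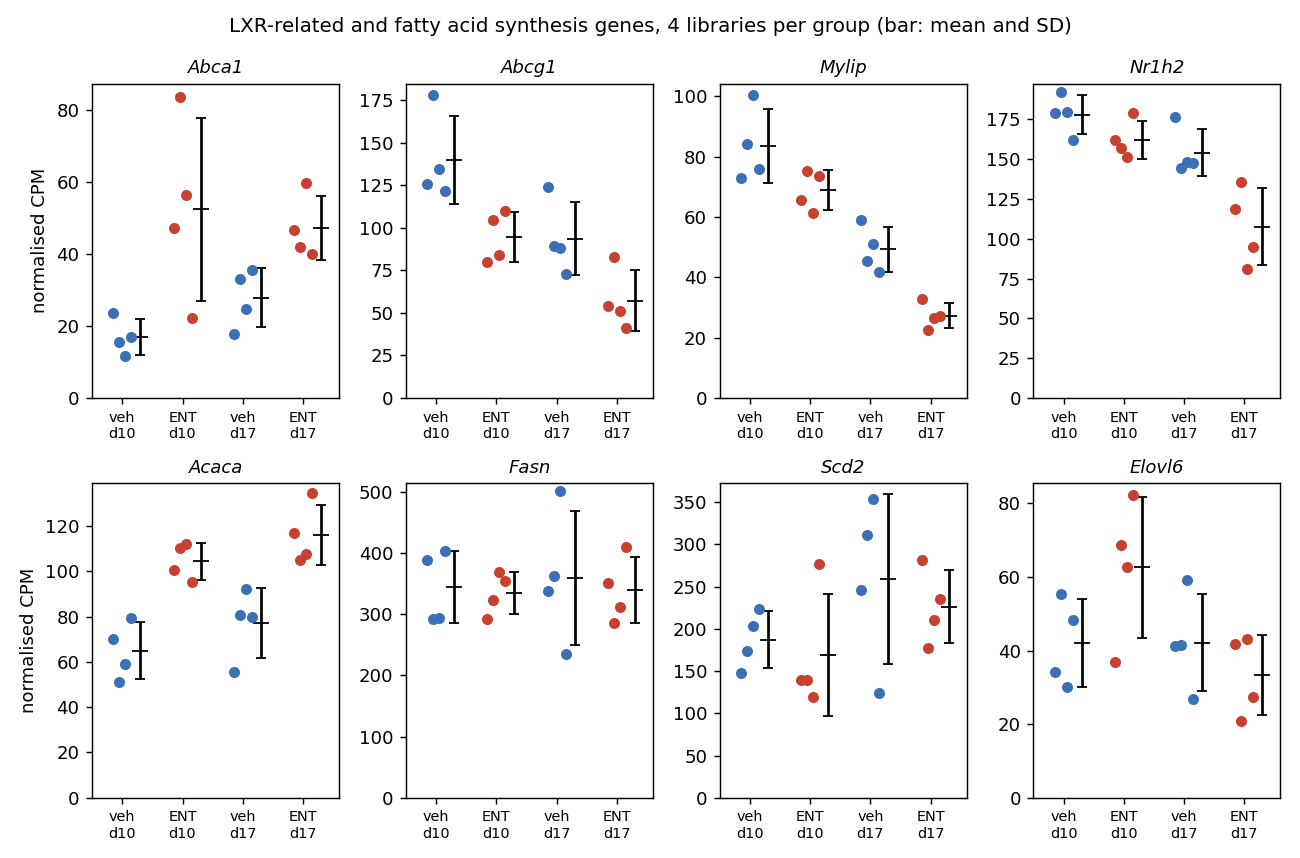
CPM in each library for 4 LXR-related members (top) and 4 fatty acid synthesis members (bottom), with vehicle in blue, entinostat in red, day 10 (d10) left and day 17 (d17) right in each panel, and the mean and SD as a black bar. Acaca is higher in all entinostat libraries at both days, Mylip is lowest in the entinostat day 17 libraries, and Fasn overlaps in all groups.

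Comparisons over time within a treatment share their libraries with those of entinostat against vehicle and are not independent of them. From day 10 to day 17 with vehicle, 1 of 34 members fell, Mylip, and none rose, beside 5.52% of all genes called, 3.63% lower and 1.89% higher, and 6.03% lower among genes above the receptor level. With vehicle 3 of 7 fibroblast and endothelial markers rose over that time and none of the 12 plasmacytoid markers was called by edgeR, none of them at an unadjusted p under 0.05. The part of these other cell types in the changes over time was not tested. Mylip was also the 1 member lower in all day 17 libraries (8.77% of all genes) and Mvd the 1 higher in all (4.78%). For Mylip the vehicle libraries went from 73.0, 84.2, 100.3 and 75.8 CPM to 59.0, 45.3, 51.0 and 41.8 CPM, separate ranges, a fall of 0.75 ± 0.15 log2 (edgeR adjusted p = 0.0106) that was not called without vehicle day 10 replicate 3 (adjusted p = 0.0612). The 18 synthesis enzymes had higher means in 16 cases, with a median of 0.36 log2 against 0.13 over all genes. None of them was called by edgeR, with 3 (16.7%) at an unadjusted p under 0.05, beside 25.7% of all genes. Mvd differed by 0.59 ± 0.22 log2 over that time and was not called (edgeR adjusted p = 0.113).

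From day 10 to day 17 with entinostat, 5 of 34 members fell (Mylip, Nr1h2, Abcg1, Elovl6 and Srebf2) and none rose, where 13.7% of all genes were called, 10.5% lower and 3.26% higher. Among genes above the receptor level 17.2% were called lower, so the members' 14.7% is not above that background. Of the plasmacytoid markers 5 of 12 fell and 1 rose over the same time. In 5 members all day 17 libraries were lower (12.5% of all genes) and in none were all higher (8.94%). Mylip went from 65.4, 75.2, 61.4 and 73.6 CPM to 32.8, 22.6, 26.5 and 27.1 CPM, with no overlap, and fell by 1.33 ± 0.16 log2 (edgeR adjusted p = 4.87e-05). Nr1h2 went from 162, 157, 151 and 179 CPM to 119, 136, 81.3 and 94.6 CPM, also without overlap, and fell by 0.56 ± 0.13 log2 (edgeR adjusted p = 0.00642). The calls of Mylip and Nr1h2 held in all 26 alternative fits run for them. Abcg1 fell by 0.71, Elovl6 by 0.96 and Srebf2 by 0.39 log2, and leaving out single libraries ended these calls in 5, 5 and 6 of 16 cases (adjusted p up to 0.101, 0.107 and 0.127). In the 10 other alternative fits the call of Abcg1 was lost in 1, that of Elovl6 in 8 and that of Srebf2 in 9. DESeq2 and limma-voom were among the fits that lost Srebf2. Abcg1 went from 79.9, 105, 83.9 and 110.1 to 54.0, 82.7, 51.4 and 41.0 CPM, Elovl6 from 36.8, 68.7, 62.6 and 82.4 to 41.8, 21.0, 43.1 and 27.5 CPM and Srebf2 from 235, 241, 283 and 336 to 229, 211, 178 and 215 CPM. Only Srebf2 of these 3 had separate groups. The 18 synthesis enzymes had a median of 0.01 log2, and none was called by edgeR. At an unadjusted p under 0.05 were 2 of them (11.1%), beside 27.4% of all genes.

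The change of the entinostat effect from day 10 to day 17 was tested as such, as an interaction. None of the 34 members passed by edgeR, where 0.471% of all genes did. At an unadjusted p under 0.05 were 6 of 34 (17.6%), beside 13.0% of all genes. Among genes above the receptor level 17.6% were, so the members are not above that background. DESeq2 called 1 member (Mvd) and 3.23% of all genes, and limma-voom called none of the 34. The median difference was −0.27 log2 for the members, −0.20 over all genes and −0.11 over genes above the receptor level. Mvd was called by DESeq2 (adjusted p = 0.0174) and by edgeR with a minimum count of 50 (adjusted p = 0.0485) or with only genes above the receptor level (adjusted p = 0.0455). In the other 23 alternatives it was not called, with adjusted p up to 0.224. Of the 6 at an unadjusted p under 0.05 Mvd had the smallest p, with a difference of −1.16 ± 0.32 log2 (edgeR adjusted p = 0.118), followed by Srebf2 at −0.49 ± 0.17 (adjusted p = 0.22). For Npc1 the difference between days was −0.23 ± 0.23 log2 and for Hmgcs1 −0.09 ± 0.27 log2. The 1 of 34 members called by DESeq2 is near the share of all genes that it called. By the main fit, the larger number of calls at day 17 is not shown to be a larger effect on single members.

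Around the module, 42 further genes of sterol and lipid metabolism were listed by role, of which 40 were in the table and 38 were tested. At day 10, 10 of 38 fell and 1 rose, and at day 17, 13 of 38 fell and 1 rose, with medians of −0.29 and −0.33 log2. Of all genes 6.93% and 13.0% were called lower, and 7.63% and 5.29% higher. Among genes above the receptor level 11.3% and 20.8% were called lower.

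Fads2, which desaturates polyunsaturated fatty acids, fell most clearly at both days. Its libraries were at 42.5, 30.1, 55.7 and 71.1 CPM with vehicle and 9.67, 5.66, 16.7 and 18.4 CPM with entinostat at day 10, and at 80.6, 66.2, 93.9 and 59.7 CPM and 13.8, 12.1, 19.9 and 32.2 CPM at day 17. No entinostat library reached a vehicle library of its day, and Fads2 fell by 1.97 ± 0.36 and 1.95 ± 0.37 log2 (edgeR adjusted p = 0.0031 and 0.00131). At day 10 Npc2, the soluble partner of Npc1 in lysosomes, fell by 0.51 log2, and Syvn1, a ubiquitin ligase of the endoplasmic reticulum, by 0.67 log2. The call of Syvn1 at day 10 was lost without vehicle day 10 replicate 3 or entinostat day 10 replicate 2 (adjusted p up to 0.0541). At day 17 Rnf139, another ligase of that membrane, fell by 0.55 log2, Slc25a1, the mitochondrial citrate carrier, by 0.93 log2 and Syvn1 by 0.78 log2. Osbp, an oxysterol-binding protein, was the 1 of the 38 whose entinostat effect differed between days by edgeR. It stood at 154, 124, 144 and 144 CPM with vehicle and 42.8, 138, 43.2 and 65.6 CPM with entinostat at day 10, and 54.6, 73.6, 48.4 and 59.0 CPM and 92.0, 104, 97.9 and 122 CPM at day 17. At day 10 3 of 4 entinostat libraries lay below the vehicle range, and at day 17 all 4 lay above it. The effects were −0.96 and 0.83 log2 and their difference was 1.79 ± 0.38 log2 (edgeR adjusted p = 0.0455), lost on leaving out any of 14 of 16 libraries (adjusted p up to 0.0907).

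Over time with vehicle, 4 of the 38 fell: Lbr, a sterol reductase of the nuclear membrane, by 0.48, Osbp by 1.26, the elongase Elovl5 by 0.52 and Rxra, a partner receptor of LXR, by 0.95 log2. These 4 are 10.5%, beside 3.63% of all genes and 6.03% of genes above the receptor level called lower. The call of Rxra was lost in 8 of 16 cases with a library left out (adjusted p up to 0.141) and in 5 of the 10 other alternative fits. With entinostat 6 of 38 (15.8%) fell over time, beside 10.5% of all genes called lower. Among genes above the receptor level 17.2% were, so the 38 are not above that background. The 6 included Arl4c, a small GTPase that LXR drives, by 1.08, Rnf139 by 0.57, Elovl5 by 0.49 and Lbr by 0.31 log2. Genes above the receptor level had a median of −0.15 log2 in that comparison. The call of Lbr was lost with library size alone and with a minimum count of 50. It was also lost with only genes above the receptor level and with only the groups compared. Arl4c stood at 130.1, 131, 125 and 179.8 CPM at day 10 and 71.1, 83.2, 49.8 and 55.6 CPM at day 17 with entinostat, with no overlap.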

How the data were processed

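RNA of the sorted cells was made into libraries with the SMART-seq v4 and Nextera XT kits, per the labels' protocols, which do not keep strand or mark molecules. The authors deposited whole-number counts of reads per gene over exons. The submitters' processing notes name STAR and mm10. How reads were counted, with which annotation and whether duplicates were removed is not given in the sources used here. Every library had 1 column and its group came from the labels.

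The deposited counts were scaled by TMM and tested with edgeR 4.0.16 (quasi-likelihood, group means over 16 libraries, 12 residual degrees of freedom, R 4.3.3) on 17414 genes kept by filterByExpr with a minimum count of 10, and p-values were adjusted by Benjamini-Hochberg over these genes. The common biological coefficient of variation was 0.38. SE is the log2 fold change divided by the root of its F value. The script was tested on simulated counts. Alternatives were DESeq2 1.42.0, limma 3.58.1 (voom with sample weights), library size alone or RLE in place of TMM, a minimum count of 50 or no filter, only genes above the receptor level, receptor reads as a covariate, replicate blocks, only the groups compared, and each library left out in turn.

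Members and lists were chosen with earlier results of these data known. Full statistics were given for up to 8 called members of smallest p in each comparison and always for Srebf1, Srebf2, Insig1, Hmgcs1, Sqle, Stard4, Abca1 and Fasn in the entinostat comparisons. Of the other pathway genes, up to 4 called genes of smallest p were named, and some genes that the rule would name are not reported here; Osbp was named after its values were seen, as were the other members described. The main fit paired no libraries, and replicate numbers entered only as blocks in alternative fits, across all groups or within each day. At day 10 same-numbered libraries of both treatments correlated at 0.212 to 0.249 in their deviations from the group means. Entinostat replicate 3 of that day correlated best with vehicle replicate 1. The labels state no pairing. No 2 libraries agreed within sampling noise.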

Additional observations from a re-analysis of the deposited data

Results flagged for a closer look

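Among the 34 members 11 of 136 groups of 4 libraries held a value set apart from the other 3 by more than the 95% limit of Dixon's test, and chance alone gives about 1 in 20 groups. Vehicle day 10 replicate 2 was low for Mvk, mevalonate kinase, at 16.8 CPM (others 24.9 to 25.4), and for Mvd at 21.3 CPM (others 33.0 to 33.7). Entinostat day 10 replicate 4 was high for Fdps at 91.9 CPM (others 53.5 to 56.1), for Npc1 at 58.4 CPM (others 46.9 to 47.9) and for Scd2 at 276 CPM (others 119.6 to 139). Vehicle day 17 replicate 1 was high for Nr1h2 at 176 CPM (others 144 to 148). Entinostat day 17 replicate 3 was low for Acat2 at 41.5 CPM (others 49.8 to 51.2) and for Pmvk at 14.9 CPM (others 27.8 to 29.9). Entinostat day 17 replicate 2 was low for Dhcr7 at 36.9 CPM (others 46.1 to 47.9) and high for Insig2 at 71.4 CPM (others 55.0 to 57.7) and Npc1 at 54.9 CPM (others 45.1 to 46.4).

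The entinostat effect on Osbp, an oxysterol-binding protein outside the 34 members, was 1.79 log2 higher at day 17 than at day 10 by edgeR's interaction test.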

How the results depend on the processing

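At day 10, where 6 members were called, the count was 21 by limma-voom, and 3 with library size alone, with a minimum count of 50, with only genes above the receptor level and with receptor reads as a covariate, and it ranged from 3 to 15 when single libraries were left out. At day 17, with 21 called, it was 14 to 26 over all alternatives and 14 to 23 with libraries left out. Over time with vehicle, with 1 called, it was 3 by DESeq2, 4 by limma-voom, 2 with genes above the receptor level and 0 to 2 with libraries left out. Over time with entinostat, with 5 called, it was 3 with RLE scaling, the receptor covariate and only the groups compared, 2 with library size alone and 2 to 5 with libraries left out. For the difference between days, with 0 called, it was 1 by DESeq2, with a minimum count of 50 and with genes above the receptor level, and 0 with any library left out. With the replicate number as a block the counts were 5 (block across all groups) and 7 (within each day) at day 10, 20 at day 17, 1 over time with vehicle, 3 over time with entinostat and 0 for the difference. Same-numbered libraries correlated in their deviations from the group means at −0.388 to 0.146 between treatments at day 17, −0.384 to −0.0835 between days with vehicle and −0.0085 to 0.227 between days with entinostat, so that not every pair deviated together outside day 10.

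Members near 0 changed sign, none of them called. At day 10 Stard4 was 0.028 with library size alone, 0.0046 with genes above the receptor level and 0.030 with the receptor covariate. Fasn was 0.013 by DESeq2 and with RLE scaling, 0.12 with library size alone, 0.084 with a minimum count of 50, 0.10 with genes above the receptor level, 0.059 with only the groups compared and −0.11 to 0.071 with libraries left out. With library size alone Mvk was 0.013, Mvd 0.0057, Nr1h2 0.029 and Scd2 0.015; Nr1h2 was 0.012 with genes above the receptor level, and Fdft1 was −0.41 to 0.015 with libraries left out. At day 17 Stard4 was 0.0085 with genes above the receptor level, 0.023 with the covariate and −0.32 to 0.0032 with libraries left out. Fasn was 0.035 by DESeq2 and with RLE scaling, 0.087 with library size alone, 0.11 with a minimum count of 50, 0.12 with genes above the receptor level and −0.19 to 0.13 with libraries left out. Ebp was 0.039 by DESeq2, 0.0077 by limma-voom, 0.031 with RLE scaling, 0.078 with library size alone, 0.10 with a minimum count of 50, 0.11 with genes above the receptor level, 0.058 with the covariate and −0.14 to 0.044 with libraries left out. Insig2 was −0.078 by limma-voom, −0.031 with no filter and −0.065 to 0.12 with libraries left out, and Scd2 was 0.0067 with genes above the receptor level and −0.38 to 0.0047 with libraries left out. For each of these the cause was not tested. Depth limits the entinostat day 17 group most, whose smallest library had 554593 counts.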
